A study of Melitaea cinxia with 170 samples.

Results

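The island difference in unflown female Glanville fritillary butterflies (Melitaea cinxia) was measured as gene expression in the thorax. The comparison took every butterfly labelled female and control, which gave 17 of the 85 butterflies of the series: 8 from AL, the island of Åland, and 9 from PT, the island of Pikku Tytärsaari, both in the Baltic Sea. None of these females was made to fly. They were otherwise handled like flown butterflies, and each was frozen whole either 1 h or about 20 h after it was moved to the flight conditions. There were 4 AL and 4 PT females at 1 h, and 4 AL and 5 PT females at 20 h. The labels give no age, rearing condition, family or preparation batch for them. The series also holds flown butterflies and males of both islands, and 36 flown females (17 AL and 19 PT) and 9 unflown males (4 AL and 5 PT) served here as separate sets in which to measure the same difference.

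The thorax of a butterfly carries the wings and is filled mostly by flight muscle, one of the most energy-demanding tissues of any animal, together with cuticle, fat body, nerve cord and gut. The Glanville fritillary of Åland is a textbook case of a metapopulation, a network of small local populations that go extinct and are refounded by dispersing females, whereas Pikku Tytärsaari is a small, remote island. Unflown females show the expression state of each island's butterflies without a flight bout before sampling. RNA came from the whole thorax, so fewer cells of a type and less RNA per cell cannot be told apart. The files label the 16667 gene models by project numbers, of which 0 could be found in the RefSeq gene table of assembly ilMelCinx1.1. Genes are therefore given by identifier, without name, function, position or sequence, and the defining markers of flight muscle or other tissues were not checked.

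Each butterfly gave 2 strand-specific libraries anchored at the polyA tail, with inserts of 450 and 650 nt, whose counts were summed. The 17 females had 2188992 to 6661119 counts each (median 3955268), and 14228 gene models had at least 1 read in them. Of these, 7643 passed the filter on low counts and were tested, and they held 99.76% of the counts. Total counts were 4525257 ± 1462546 (SD, n = 8) in AL and 3527782 ± 761090 (n = 9) in PT, a difference that did not pass the test (exact permutation test, 2-sided, p = 0.0967, adjusted p = 0.129 over 4 measures of the libraries). A read was found for 9554 ± 827.3 gene models per AL female and 8805 ± 760.2 per PT female (exact permutation p = 0.0708, adjusted p = 0.129), and for 8954 ± 597 and 8394 ± 587.3 when every female was thinned to the lowest total (exact permutation p = 0.0708). On the second principal component, AL female 4 at 1 h and PT female 3 at 20 h stood apart from the other 15, with scores of 81.8 and 62.2. Results that depend on these butterflies are given with and without them.

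The islands differed broadly. Of the 7643 genes, 1140 (14.9%) were called at an adjusted p under 0.05 by edgeR's quasi-likelihood F test with time as a covariate. Expression was higher in AL for 677 genes (8.86%) and higher in PT for 463 (6.06%). The first principal component, 22.4% of the variance of log2 CPM (CPM being read counts relative to the library total after TMM scaling), separated the islands with no overlap, with scores of 36.7 to 55.2 in AL and -56.1 to -29.7 in PT. Population accounted for a fraction of 0.967 of the variation of these scores and time for 0.012. Without both butterflies that stood apart, 1028 genes were called, 641 in favour of AL and 387 in favour of PT.

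**Figure D1:**
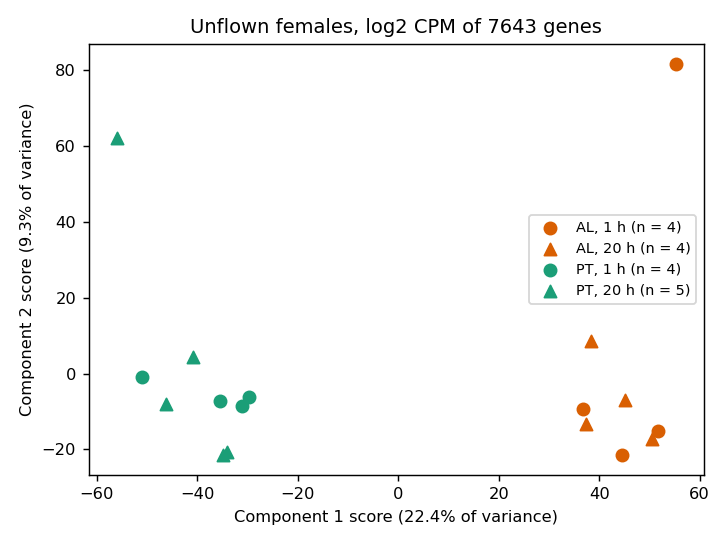
Scores of the 17 unflown females on the first and second principal components of log2 CPM over 7643 genes; circles are females frozen at 1 h and triangles at about 20 h, orange is AL and green is PT. The islands lie on opposite sides of the first component, from 36.7 up in AL and from -29.7 down in PT, while AL female 4 at 1 h (81.8) and PT female 3 at 20 h (62.2) lie apart on the second.

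The differences were large relative to those of all genes. The median absolute log2 difference was 1.76 over the called genes and 0.58 over all genes tested, a contrast that selection by the test favours. Genes higher in AL had a median log2 difference of 2.16, and genes higher in PT one of -1.32. Past 2-fold were 625 AL-higher and 338 PT-higher genes, past 4-fold 373 and 121, and past 16-fold 95 and 44. A fitted difference is no bound where one island has no read, which held for 19 called genes, 9 without a read in AL and 10 without one in PT. With these set to a bound that allows 3 reads over the island's butterflies, 95 and 43 genes were past 16-fold and the medians were 2.16 and -1.32. The called genes also made up a sizeable part of the transcripts. Genes called higher in AL held 18.3% ± 1.53 of the counts in AL females and 5.68% ± 0.844 in PT females. MCINXTMP_006617 alone made up 9.62% and 1.84% of the counts within these. Genes called higher in PT held 5.74% ± 0.498 in AL and 12.1% ± 1.13 in PT. These shares describe genes chosen on the same butterflies and were not tested.

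**Figure D2:**
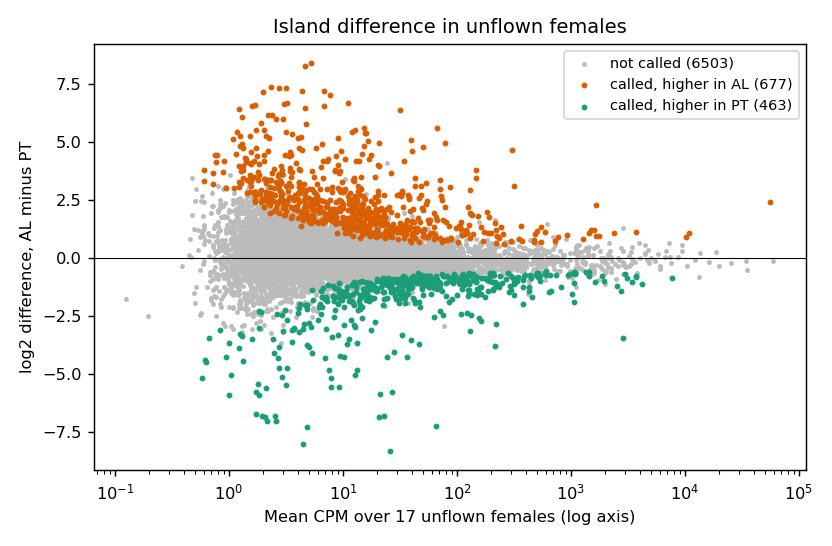
Log2 difference, AL minus PT, against mean CPM on a log axis for the 7643 genes tested in the 17 unflown females; each point is a gene, grey if not called, orange if called higher in AL (677) and green if called higher in PT (463). The isolated orange point at the far right is MCINXTMP_006617, the most abundant gene of the AL females, at 2.42.

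One gene stood out by abundance. MCINXTMP_006617, singled out after its values were seen, had more counts than any other gene in the AL females and ranked 6 in the PT females. At 1 h the AL females had 87375, 116792, 85441 and 81939 CPM, and at 20 h they had 95348, 85905, 119820 and 105516 CPM. The PT females had 25046, 20980, 18848 and 8758 CPM at 1 h, and 12490, 24774, 9844, 22040 and 21505 CPM at 20 h. The lowest AL female was thus more than 3 times as high as the highest PT female, at both times. The gene took 9.62% ± 1.07 of all counts in AL females (SD, n = 8, range 7.99% to 11%) and 1.84% ± 0.673 in PT females (n = 9, range 0.889% to 2.67%). The log2 difference was 2.42 ± 0.24 (SE; adjusted p = 3.78e-07), with 2.34 ± 0.36 at 1 h and 2.49 ± 0.33 at 20 h. Libraries of both insert sizes showed it: 9.37% ± 1.04 in AL against 2.17% ± 0.943 in PT with 450 nt inserts, and 9.86% ± 1.18 against 1.43% ± 0.507 with 650 nt inserts.

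Of the 4 library measures, the share of the most abundant genes was the one whose difference between islands passed the test. The 10 most abundant genes of each female took 32.5% ± 2.71 of the counts in AL and 27.8% ± 3.46 in PT (exact permutation test, 2-sided, p = 0.00831, adjusted p = 0.0332 over 4 measures). Without MCINXTMP_006617 the shares were 26.8% ± 3.27 and 27.6% ± 3.45 (exact permutation p = 0.597). In flown females, on a scale common to all 85 butterflies, it was at 52056 ± 37059 CPM in AL (range 5025 to 144234) and 14143 ± 7092 in PT (range 4474 to 33668), so the islands overlapped there, with a log2 difference of 1.90 ± 0.28 (adjusted p = 1.29e-06). In unflown males it was at 12840 ± 3072 CPM in 4 AL males (range 9503 to 16932) and 9734 ± 8491 in 5 PT males (range 3742 to 23448), with a log2 difference of 0.71 ± 0.47 (adjusted p = 0.438). On the same scale the 8 unflown AL females were at 94706 ± 14527, and their lowest value, 78935, lay above the highest unflown male. The 9 unflown PT females, at 17592 ± 6166 (range 8462 to 24720), overlapped with the males of both islands, and no test between the sexes was made. The test of whether the island difference itself differed between unflown females and unflown males gave 1.94 ± 0.50 and did not pass (adjusted p = 0.373).

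Among the other abundant genes, the next most abundant called gene without overlap that was higher in AL and the 2 most abundant that were higher in PT, all chosen after their values were seen, differed less. MCINXTMP_004883, higher in AL, was at 3566, 2090, 3578 and 955.6 CPM in AL females at 1 h and at 2485, 2012, 4568 and 3557 CPM at 20 h. In PT females it was at 605.0, 712.8, 712.4 and 439.2 CPM at 1 h and at 436.1, 602.7, 416.0, 894.1 and 480.4 CPM at 20 h. Its log2 difference was 2.27 ± 0.27 (adjusted p = 3.32e-06), and the lowest AL value, of the female that stood apart on the second component, lay just above the highest PT value. MCINXTMP_012199, higher in PT, was at 642.8 to 2343 CPM in the 8 AL females and at 2602 to 6720 CPM in the 9 PT females (log2 difference -1.43 ± 0.23, adjusted p = 0.000134). MCINXTMP_004950 was at 823.0 to 1920 CPM in AL and at 2094 to 3460 CPM in PT (-0.99 ± 0.22, adjusted p = 0.00308). All 3 had the same direction in flown females, at 1.29, -1.46 and -0.85, and in unflown males, at 1.47, -0.73 and -0.75, where the difference of both PT-higher genes missed the threshold (adjusted p = 0.103 and 0.0981).

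Genes were ranked among those called with a mean of at least 5 CPM and the same sign at both times. The largest fitted differences there belonged to genes with few or no reads on one island. Of the 4 named, 3 were at or near 0 in some butterflies of the other island too. MCINXTMP_011192 had no read in any of the 9 PT females. Among AL females it was at 10.0, 23.2, 0 and 21.2 CPM at 1 h and at 22, 8.06, 4.94 and 0 CPM at 20 h, so 6 of 8 had reads, 380 in all. Allowing 3 reads over the PT group, it was at least 111.1-fold higher in AL (adjusted p = 0.00158). MCINXTMP_007209 had 2 reads in PT, both from 1 female at 1 h, and 437 reads in AL. Its AL values were 0, 21.3, 0.216 and 27.1 CPM at 1 h and 0.538, 7.5, 42.9 and 15.3 CPM at 20 h, with 5 of 8 females well above the rest. The ratio of summed reads per total was 191.6 (95% exact interval 52.7 to 1587, counting error only; adjusted p = 0.000278).

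On the PT side, MCINXTMP_003926 had 4 reads in AL females and 1479 in PT females. The PT values fell into 2 levels, with 1.24, 85.4, 0.727 and 52.6 CPM at 1 h and 0, 59.9, 92.7, 73.6 and 72.0 CPM at 20 h, while no AL female exceeded 0.469 CPM. Its log2 difference was -8.33 ± 1.33 (adjusted p = 0.000477), and limma voom gave -4.99 with an adjusted p of 0.202. MCINXTMP_010661 was read in all PT females, at 191.6, 123.1, 25.9 and 190.7 CPM at 1 h and at 230.1, 108.0, 98.4, 15.3 and 120.2 CPM at 20 h. In AL it was at 0.313, 0.235, 0.433 and 0 CPM at 1 h and at 0.269, 3.47, 0.78 and 0 CPM at 20 h. The groups did not overlap, and the log2 difference was -7.25 ± 0.75 (adjusted p = 3.32e-06).

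**Figure D3:**
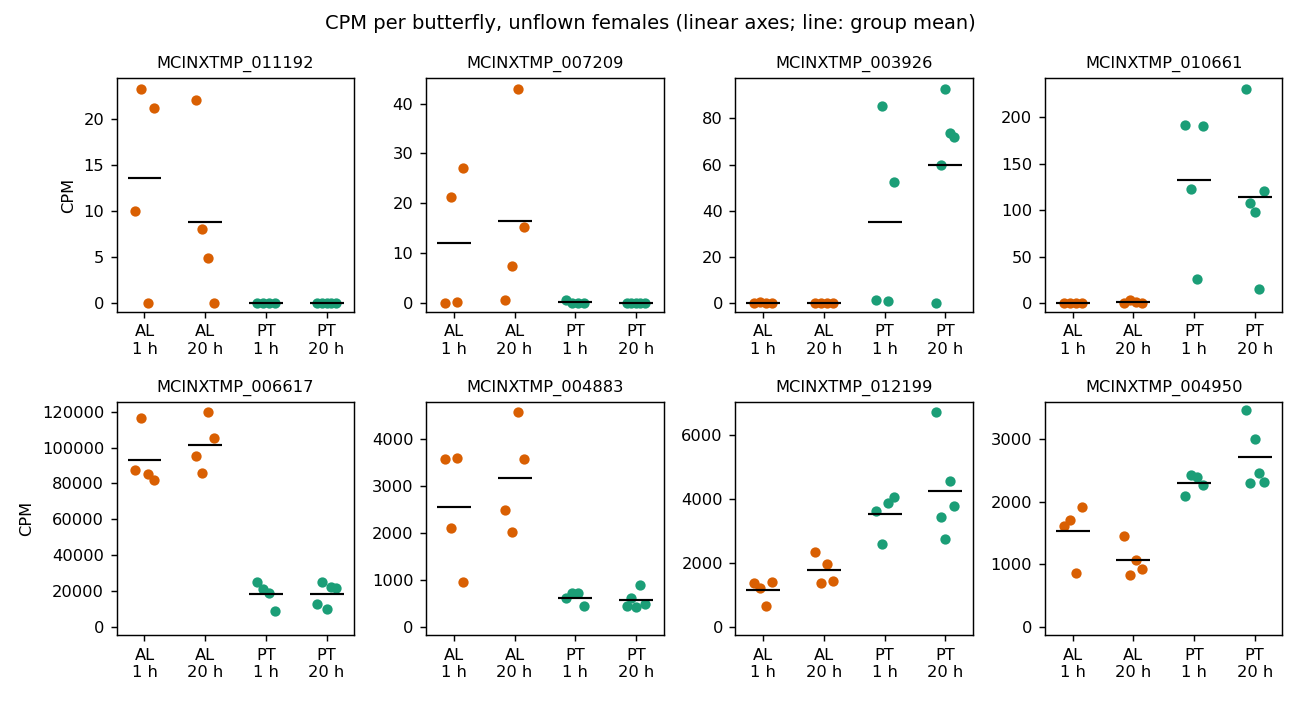
CPM of each unflown female for the 4 genes with the largest island differences (top row) and the 4 abundant genes without overlap (bottom row), on linear axes that differ between panels; points are butterflies by island and time, and lines are group means. In the top row MCINXTMP_011192, MCINXTMP_007209 and MCINXTMP_003926 split the females of the expressing island into high and near-zero values, while the 8 AL values of MCINXTMP_006617 lie between 81939 and 119820 and its 9 PT values between 8758 and 25046.

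Complete separation of the islands was the exception. For 173 genes (2.26% of those tested) the 8 AL and 9 PT values did not overlap, 106 of them (1.39%) with all AL females above and 67 (0.877%) with all PT females above. Of these, 172 were called, and the other one, MCINXTMP_015819, named after its values were seen, lay just outside, at 9.62 to 21.2 CPM in AL against 0.718 to 9.41 CPM in PT (adjusted p = 0.0547). The remaining 968 called genes overlapped between the islands in at least 1 female. Among the 139 genes called past 16-fold, 41 had no overlap. Reads in every female of one island and in none of the other were rarer still. Of all 16667 gene models, 807 had no read in any AL female but a read in at least 1 PT female, and 1349 the reverse. The 8 AL females had more counts in all than the 9 PT females (36202055 against 31750041), and these numbers were not thinned to equal depth. With a read required in every female of the other island, 3 and 3 were left, of which 3 and 1 were among the genes tested. The clearest were MCINXTMP_011127, at 3.51 to 19.5 CPM in PT and at least 98.4-fold higher there (adjusted p = 1.04e-05), and MCINXTMP_002884, at 0.316 to 25.9 CPM in AL and at least 115.5-fold higher there (adjusted p = 0.000278), both picked after their values were seen.

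The direction of the difference changed with abundance. Below 5 CPM, 209 of 265 called genes (78.9%) were higher in AL, and from 5 to 50 CPM 362 of 576 (62.8%) were. From 50 to 500 CPM only 87 of 244 (35.7%) were higher in AL, and at 500 CPM and over 19 of 55 (34.5%). The called share rose from 9.54% of the 2777 genes below 5 CPM to 22.6% of the 1080 genes between 50 and 500 CPM. The median log2 difference over all genes of a class, called or not, went from 0.27 through 0.02 to -0.22 and -0.18. With every female thinned to the lowest total, the shares higher in AL were 78.1%, 63.4%, 35.0% and 33.3%. With DESeq2's size factors they were 80.3%, 67.5%, 39.6% and 39.6%.

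The top class depended on the library. With the 650 nt libraries alone 19 of its 32 called genes (59.4%) were higher in AL, against 16 of 45 (35.6%) with the 450 nt libraries alone. In flown females the shares higher in AL were 75.9%, 60.5%, 36.3% and 17.9% from the lowest class to the highest. In unflown males they were 65.8%, 56.8%, 48.7% and 75%, the last being 18 of 24 genes. A part of library composition or depth in the trend with abundance was not tested beyond these settings.

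**Figure D4:**
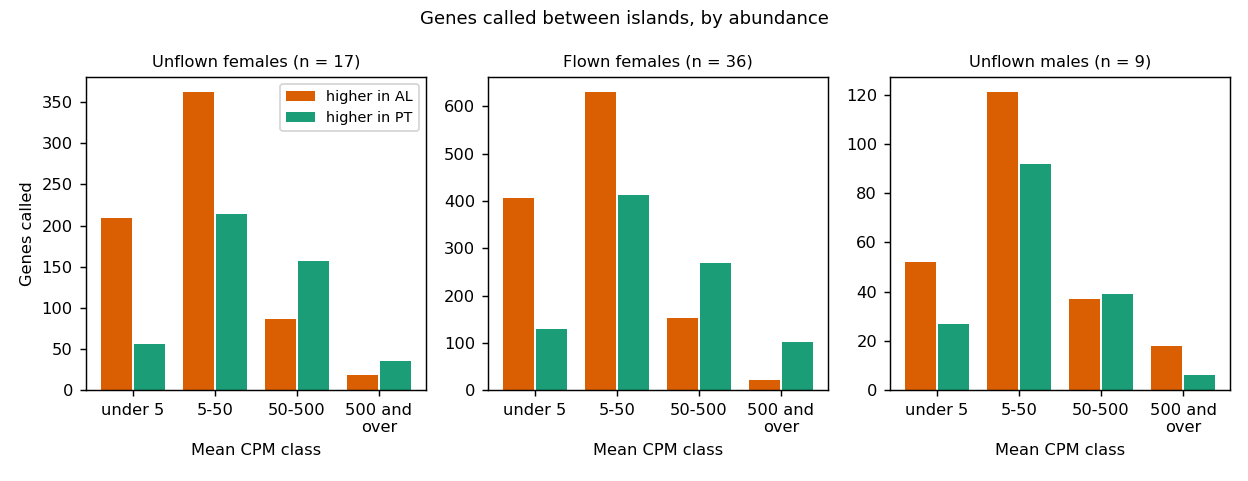
Numbers of genes called between the islands in 4 classes of mean CPM, for unflown females, flown females and unflown males; orange bars are genes higher in AL and green bars genes higher in PT, and each panel has its own vertical axis from 0. In both sets of females the orange bar is the taller below 50 CPM and the green bar above it, while in unflown males the highest class holds 18 genes with the higher level in AL and 6 with the higher level in PT.

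The island difference was also taken at each time, from different butterflies but in a joint fit of all the unflown females. The spread and the scaling were therefore shared, so the calls at 1 h and at 20 h are not fully independent. At 1 h, 357 genes (4.67%) were called, with 222 (2.90%) in favour of AL and 135 (1.77%) in favour of PT. At 20 h, 497 genes (6.50%) were called, 299 (3.91%) and 198 (2.59%). Of the genes called at 1 h, 346 (96.9%) had the same direction at 20 h, against 68.0% of all genes tested, and 476 (95.8%) of those called at 20 h had the same direction at 1 h. Both lists shared 185 genes in the same direction, 51.8% of the first and 37.2% of the second. These counts move with single butterflies, from 195 without PT female 1 at 1 h to 392 at 1 h, and from 308 without AL female 1 at 20 h to 550 at 20 h.

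At 1 h the largest differences were those of MCINXTMP_006482 and MCINXTMP_011192, higher in AL, and of MCINXTMP_010661 and MCINXTMP_011807, higher in PT. MCINXTMP_006482 was at 18.3, 54.4, 39.8 and 30.3 CPM in AL and had no read in the 4 PT females, at least 142.4-fold (adjusted p = 0.00888), whereas at 20 h 4 of 5 PT females had reads, at up to 6.22 CPM. MCINXTMP_011807 was at 70.4, 25.1, 21.8 and 44.0 CPM in PT, against 2 reads in AL (ratio of summed reads 353.4, 95% exact interval 97.3 to 2926; adjusted p = 0.00955). The groups at 1 h did not overlap for either gene. The call of MCINXTMP_011192 at 1 h was lost in 9 of 17 fits that left out 1 female (adjusted p up to 0.0817) and in 4 of 10 other alternatives, with an adjusted p of 0.203 by limma voom. That of MCINXTMP_011807 was lost by limma voom, with an adjusted p of 0.232.

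At 20 h the same ranking gave MCINXTMP_008630 and MCINXTMP_007209, higher in AL, and MCINXTMP_003926 and MCINXTMP_013729, higher in PT. MCINXTMP_008630 was at 22, 31.4, 12.7 and 0.611 CPM in AL and had no read in the 5 PT females, at least 126.8-fold (adjusted p = 0.00679). MCINXTMP_013729 was steady in PT, at 26.2, 52.0, 40.6, 51.1 and 52.2 CPM, and at 0, 0.556, 0 and 0 CPM in AL, a log2 difference of -7.58 ± 0.80 (adjusted p = 4.08e-06). It did not overlap at 1 h either, with 75.7, 33.0, 33.4 and 25.7 CPM in PT against at most 1.25 CPM in AL. At 20 h the call of MCINXTMP_003926 was lost by limma voom (adjusted p = 0.385), with the 450 nt libraries alone (0.146) and without AL female 3 at 20 h (0.0574). That of MCINXTMP_007209 was lost without a count filter (adjusted p = 0.0854), with the 650 nt libraries alone (0.0581) and without PT female 1 at 1 h (0.0622).

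No gene passed the test of whether the island difference itself differed between 1 h and 20 h (0 of 7643 by edgeR's quasi-likelihood test and 0 by limma voom). DESeq2, run on 14228 gene models, called 5, and edgeR's test gave 403 genes at an unadjusted p under 0.05. If no gene differed, a share of about 0.05 of the 7643 would have such a p, so a count of this kind alone shows no difference. In simulated data of this size, with few genes changed, the share of differences found was 6% at 4-fold and 0% at 2-fold. Most differences of up to 4-fold could therefore have been missed. A single gene was called in opposite directions, MCINXTMP_014796, also named after its values were seen. In AL it was at 4.22, 13.8, 8.87 and 4.02 CPM at 1 h and at 130.7, 142.0, 27.8 and 43.4 CPM at 20 h. In PT it was at 19.8, 20.5, 16.5 and 81.7 CPM at 1 h and at 38, 22.3, 12.2, 11.9 and 31.6 CPM at 20 h. The island difference was -2.14 ± 0.62 at 1 h (adjusted p = 0.0463) and 1.89 ± 0.55 at 20 h (adjusted p = 0.0429), and the difference between these, 4.03 ± 0.83, did not pass (adjusted p = 0.239). Time itself, 20 h against 1 h with island as a covariate, gave 0 calls by edgeR's quasi-likelihood test, 1 by limma voom and 3 by DESeq2, and 304 genes at an unadjusted p under 0.05.

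The difference was then measured in butterflies that the comparison had not used. In flown females 2123 genes (27.8%) were called between the islands, of which 1212 (15.9%) favoured AL and 911 (11.9%) favoured PT. Of the 1140 genes called in unflown females, 1103 (96.8%) had the same direction in flown females, against 73.3% of all genes tested. Also called there, in the same direction, were 808, which is 70.9% of the genes called in unflown females and 38.1% of those called in flown females. None was called in opposite directions. The ratio of the log2 difference in flown females to that in unflown females had a median of 0.68 over the 1140 genes, which were chosen for a large value in unflown females.

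In unflown males 392 genes (5.13%) were called, 228 (2.98%) in favour of AL and 164 (2.15%) in favour of PT. The direction was the same as in unflown females for 1070 of the 1140 genes (93.9%), against 70.4% of all genes. Called in both, in the same direction, were 253 genes, 22.2% of those called in unflown females and 64.5% of those called in unflown males. The direction held in both other sets for 1040 genes (91.2%), and 225 genes were called in all 3 sets, 139 with the higher level in AL and 86 in PT. Across the 7643 genes the log2 differences of unflown females had a Pearson correlation of 0.78 with those of flown females and 0.65 with those of unflown males. Genes are not independent replicates, and both values are descriptions.

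**Figure D5:**
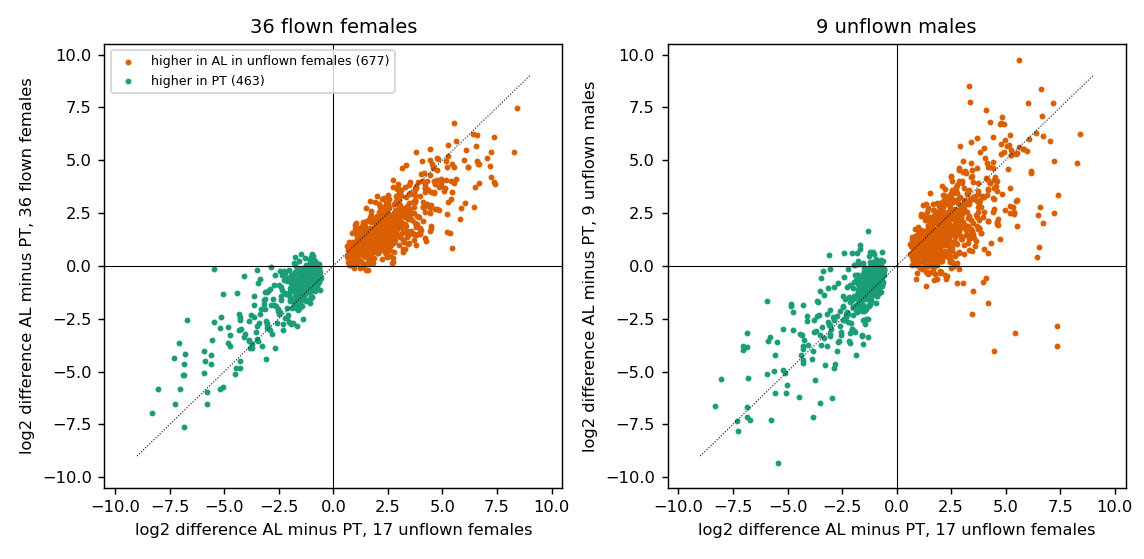
Log2 difference, AL minus PT, of the 1140 genes called in unflown females (horizontal axis) against the same difference in 36 flown females (left) and 9 unflown males (right); orange genes were higher in AL (677) and green genes higher in PT (463), and the dotted line marks equal values. Points of one colour lie mostly in one quadrant, with the same sign for 1103 genes on the left and 1070 on the right.

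Genes with the largest differences mostly held their direction. All 139 genes called past 16-fold had the same direction in flown females, where 130 were called, and 133 had it in unflown males, where 53 were called. Their median absolute log2 difference was 5.11 in unflown females, 3.92 in flown females and 4.06 in unflown males. They were chosen for a large value in unflown females, which favours the higher median there. MCINXTMP_013729 gave -6.84 ± 0.55 in unflown females, -4.65 ± 0.35 in flown females and -7.13 ± 0.72 in unflown males. MCINXTMP_003926 gave -6.96 ± 0.75 in flown females and -6.61 ± 0.39 in unflown males. On the AL side, MCINXTMP_006482 was called in both, at 3.74 ± 0.75 in flown females (adjusted p = 0.000173) and 7.03 ± 0.78 in unflown males (adjusted p = 0.000131). Calls were made in flown females but not in unflown males for MCINXTMP_011192 (6.22 ± 1.81 in males, adjusted p = 0.078), MCINXTMP_007209 (4.98 ± 1.5, adjusted p = 0.0708) and MCINXTMP_008630 (2.79 ± 2.97, adjusted p = 0.67). None of the 5 PT males had a read of MCINXTMP_011192, and the AL males reached at most 4.1 CPM, so its fitted value is no bound.

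Tests of a change in the island difference itself gave few calls. Between unflown and flown females 1 of 7643 genes (0.0131%) was called by edgeR's quasi-likelihood test, MCINXTMP_005177, with 577 at an unadjusted p under 0.05. Here too, and in the test between the sexes, a share of about 0.05 would have such a p if no gene differed. DESeq2 called 15 of 15435 gene models. Among unflown females MCINXTMP_005177 was at 2.64 ± 1.91 CPM in AL (n = 8) and 4.16 ± 2.18 in PT (n = 9), with overlapping ranges. Among flown females it was at 10.7 ± 5.15 in AL (n = 17) and 1.97 ± 1.78 in PT (n = 19). The interaction was -3.14 ± 0.60 (unflown minus flown; adjusted p = 0.0176), and it was lost without the butterflies that stood apart (-2.90, adjusted p = 0.137). Between unflown females and unflown males 0 genes were called by limma voom and 0 by edgeR's quasi-likelihood test, with 484 at an unadjusted p under 0.05. DESeq2 called 8 of 14689 gene models there. In simulated data with few genes changed, these tests recovered 39% and 13% of 4-fold differences and 4% and 0% of 2-fold ones.

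Butterflies of the islands varied by similar amounts around their own means. The median SD of log2 CPM over all genes tested was 0.81 in AL and 0.83 in PT, and over the called genes 0.74 and 0.68, with the AL value the larger for 55.0% of them. Called genes with consecutive identifier numbers tended to share a direction. Of 94 such pairs with both genes called, 64 (68.1%) had the same direction, against 52.3% of all 4015 consecutive pairs tested. Whether the numbers follow genome position is not given in the sources used here.

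The labels give no preparation date, run or lane for the butterflies, so a batch that follows the island, or a rearing difference, cannot be told apart from the island difference.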

How the data were processed

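Thorax RNA of 85 butterflies was sequenced as strand-specific, polyA-anchored libraries of 450 and 650 nt inserts, per the labels' protocols. CASAVA 1.8, TopHat2 2.0.5 and edgeR were used, per the submitters' processing notes. Not given in the sources used here were the genome build, annotation, counting tool and use of strand, so genes that overlap or have near-identical copies may share reads. For each of 170 libraries the authors deposited raw counts per gene model, without normalization. They also deposited a table of 8258 genes, taken as a normalized signal whose scale is not stated. In 100% of values that table equalled the summed counts of a butterfly times 1 factor, to within 0.0006 plus 2e-05 of the value, and only its gene list was used, as an alternative filter.

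Counts of both libraries of a butterfly were summed, and the butterfly is the replicate. Whether butterflies shared a family is not given, so p-values cover the spread between these butterflies. The 7643 genes tested passed filterByExpr over all 85 butterflies grouped by treatment. Each comparison used the robust quasi-likelihood F test of edgeR 4.0.16 in R 4.3.3, with TMM factors of the butterflies fitted and time as a covariate or as 4 island by time cells. Adjustment was Benjamini-Hochberg over all genes, and genes were called at an adjusted p under 0.05. The SE is the size of the log2 difference over the square root of F. Biological variation had a common coefficient of 0.662. Library measures used exact permutation of 24310 assignments. Bounds allow 3 reads over a group, and intervals (exact binomial, 95%) cover counting error only. Principal components used log2 CPM with a prior count of 2.

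The 2 largest called differences in each direction with a mean of at least 5 CPM are named per comparison, for the main one with the same sign at both times. All other genes named were chosen after their values were seen. The set of butterflies, the rules and the tests were chosen with earlier results of these data known. Alternatives changed the scaling, filter, test (DESeq2 1.42.0, limma 3.58.1 voom), insert size, most abundant genes, depth, covariate, butterflies fitted, and each female in turn. DESeq2 was run on every gene model with a read in the butterflies fitted, not on the 7643 genes alone. On simulated counts of 7643 genes, few of them changed, the island comparison recovered 70% of 4-fold and 10% of 2-fold differences. The same comparison recovered 80% and 39% in flown females and 40% and 1% in unflown males. The threshold after adjustment depends on how many genes differ, so these rates need not hold for the real counts.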

Additional observations from a re-analysis of the deposited data

Results flagged for a closer look

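The outlying values reported here lie far from their group by Dixon's test at the 95% level, and 8 of the 38 groups checked gave one. Chance gives one in about 1 of 20 groups if values are normally distributed. Values at or near 0 CPM are not, so these rates cannot be compared. In PT females, MCINXTMP_007209 was at 0.62 CPM in female 1 at 1 h and MCINXTMP_008630 at 0.969 CPM in female 3 at 1 h, each with 0 in the other 8. In AL females, MCINXTMP_010661 was at 3.47 CPM in female 2 at 20 h (others up to 0.78), MCINXTMP_011807 at 5.98 CPM in female 3 at 20 h (others up to 1.39), and MCINXTMP_013729 at 1.25 CPM in female 1 at 1 h (others up to 0.556). These genes were named for large differences, so their low group holds few reads.

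MCINXTMP_012199 was at 6720 CPM in PT female 1 at 20 h, against 2602 to 4551 CPM in the other 8 PT females. MCINXTMP_015819 was at 0.718 CPM in PT female 2 at 1 h, against 6.17 to 9.41 CPM in the others. MCINXTMP_014796 was at 81.7 CPM in PT female 4 at 1 h, against 11.9 to 38 CPM in the others.

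MCINXTMP_005177 was called for an island difference that differed between unflown and flown females, with an interaction of -3.14 on the log2 scale by edgeR's quasi-likelihood test. It was the only gene called of 7643 in that test. The call held in 8 of 11 alternatives and in 13 of 17 fits that left out 1 female. In unflown males the gene was at 5.82 ± 3.1 CPM in AL and 1.66 ± 0.582 in PT. That difference was not called by the same kind of test (adjusted p = 0.174).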

How the results depend on the processing

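The count of genes called between islands in unflown females ranged from 721 (650 nt libraries alone, 482 higher in AL and 239 higher in PT) to 1660 (DESeq2) against 1140, and from 932 to 1171 with each female left out in turn. DESeq2 and the fits without a count filter took every gene model with a read, 14228 in these females against 7643. Their counts therefore differ in the genes tested too. At 1 h, DESeq2 called 646 genes and the 450 and 650 nt libraries alone 211 and 138. Without AL female 2 or 3, or PT female 1, 2, 3 or 4, of that time the count was 218, 223, 195, 225, 220 and 235, and the highest was 392. At 20 h the same settings called 874, 263 and 223. Without AL female 1, 2 or 3, or PT female 5, of that time the count was 308, 316, 321 and 326, and the highest was 550. The island by time test gave 1 call without a count filter, 5 by DESeq2, 1 without the butterflies that stood apart and 0 to 2 with each female left out. Time gave 3 calls by DESeq2, 1 by limma voom and 1 with the 650 nt libraries alone.

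In flown females, 3428 of 15172 gene models were called without a count filter. In unflown males the count was 791 without a count filter and 764 by DESeq2, both of 13384 gene models. It was 233 and 232 with the 450 and 650 nt libraries alone. The island by flight test gave 41 calls without a count filter and 15 by DESeq2, both of 15435 gene models. It gave 4 with thinned counts, 0 with either insert size alone, 0 without the butterflies that stood apart and 0 to 9 with each female left out. The calls fell to 0 without AL female 1 at 20 h, AL female 3 or 4 at 1 h, or PT female 1 at 1 h, and rose to 9 without AL female 3 at 20 h. The island by sex test gave 8 calls by DESeq2, of 14689 gene models. The cause was not tested.

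For the library measures, p-values of alternatives are exact permutation values without adjustment. Total counts differed by 693941 with the 650 nt libraries alone (exact p = 0.0266), by 303534 with the 450 nt libraries alone (exact p = 0.338), and by 692351 to 1243392 with each female left out, the highest without AL female 4 at 1 h (exact p = 0.0359). The difference in gene models with a read ran from 540.4 to 930.1, with an exact p of 0.0247 without AL female 4 at 1 h, 0.0435 without PT female 1 at 20 h and 0.0412 without PT female 5 at 20 h. The TMM factor difference ran from -0.0228 to 0.0237. The top-10 share difference was -0.862 percentage points without MCINXTMP_006617. For the genes named by the rule and the abundant genes without overlap, 481 alternatives were run. Of these, 453 kept their direction and call, 28 kept the direction but lost the call, and 0 changed direction. MCINXTMP_014796, MCINXTMP_015819, MCINXTMP_011127 and MCINXTMP_002884 were not among them. Leaving out the butterflies that stood apart, thinning for gene models with a read, leaving out MCINXTMP_006617 and the other settings for the abundance classes were chosen after seeing the data. No paired analysis was possible because the labels give no replicate numbers that pair butterflies. With 8 and 9 females the test recovered few 2-fold differences in simulated counts, in which few genes were changed. In the real counts 177 of the 1140 called genes differed by 2-fold or less.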
